A study of Homo sapiens with 9 samples.

Results

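Clone A4 is a derivative of the human osteosarcoma cell line U2-OS that overexpresses NCBP2, and its RNA was compared with that of U2-OS clones carrying the empty vector. The comparison used 6 of the 9 total RNA libraries of the study, chosen by their labels: the 3 libraries of clone A4 (replicates A, B and C) and the 3 vector libraries. The 3 vector libraries came from 3 separate empty-vector clones, 1 library each, with clone 2 as replicate A, clone 3 as replicate B and clone 1 as replicate C. The other 3 libraries came from clone A1, a second NCBP2 clone. Their levels are given for orientation, but these libraries also entered the gene filter, the scaling and the estimate of the spread. All groups are U2-OS cells grown without a further stated treatment. Clone A4 is 1 clone, so an effect of NCBP2 and any other difference that this clone carries cannot be told apart. The labels do not say that replicates A, B and C of clone A4 were separate cultures, and p-values then measure the spread between these libraries, which in clone A4 may be technical.

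NCBP2 and its larger partner NCBP1 form the nuclear cap-binding complex, in which NCBP2 holds the methylated guanosine cap that every RNA polymerase II transcript receives soon after its synthesis starts. The complex hands the capped RNA on to splicing, 3′ end processing, export and nuclear decay factors, and it stays on the mRNA until the cytoplasmic cap-binding protein eIF4E takes its place.

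Total reads per library were 90967774 to 111784333 in clone A4 and 89663833 to 100149195 in vector, of which 41902723 to 46845294 and 41901361 to 50554080 were counted in genes on the strand of the gene. Levels are given as counts per 1e6 gene counts (CPM) after TMM scaling, which corrects library size for differences in composition, and 3 values in a row stand for replicates A, B and C in that order. Reads outside genes made up 39.9% to 50.2% of uniquely aligned reads in clone A4 and 32.4% to 45.7% in vector, so the groups overlapped. Markers of a mesenchymal osteosarcoma line summed to 5775 to 6575 CPM in clone A4 against 6508 to 7527 CPM in vector, mostly from SPARC, VIM, COL1A1 and FN1. VIM, at 1302 to 1620 against 2004 to 2082 CPM, was the 1 of 10 tested that did not overlap. S100A4 stood at 3.32 to 6.22 CPM over the 6 libraries, and NT5E, TWIST1 and TERT had 0 counts in all 6 libraries. Of 10 blood cell markers, 9 were under 1 CPM in every library, and 4 of 8 endothelial markers were. The 12 epithelial markers, whose most abundant members were the keratins KRT8 and KRT18, summed to 78.9 to 109 CPM in clone A4 against 126 to 222 CPM in vector without overlap, and GRHL2 had 0 counts in all 6 libraries. In bulk RNA, fewer cells with a transcript and less of it per cell cannot be told apart, and the part of this difference in the results below was not tested.

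NCBP2 (ENSG00000114503.11), at chr3:196935402-196942594 on the minus strand of GRCh38, stood at 796 CPM in clone A4 replicate A, 1035 CPM in replicate B and 456 CPM in replicate C. The vector libraries held 98.4, 90.6 and 98.3 CPM. Every clone A4 library lay above every vector library, and replicate C was the lowest of the clone. The mean was 763 ± 291 CPM (SD, n = 3) against 95.8 ± 4.46 CPM, a 7.96-fold difference and a log2 fold change of 2.99 with a standard error of 0.25 (adjusted p = 0.000417, edgeR's quasi-likelihood test). Clone A1, compared with the same vector libraries, had a log2 fold change of 1.73. The genes beside NCBP2 on chromosome 3 did not pass the threshold. NCBP2AS2, which starts next to it on the other strand, differed by 0.08 on the log2 scale, PAK2 by -0.23, SENP5 by -0.16 and DLG1 by 0.01.

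NCBP1, the large subunit that pairs with NCBP2, stood at 127 CPM in clone A4 against 150 CPM in vector with overlapping libraries (log2 fold change -0.23, SE 0.15, adjusted p = 0.9997 by edgeR's test). Of 14 genes listed as the cap-binding complex and its partners, NCBP2 was the 1 called, and the median log2 fold change was 0.08. Over all genes tested 0.115% were called. The 9 genes of cap synthesis and methylation, the 22 of mRNA export and the exon junction, the 18 of the nuclear exosome with its adaptors and the 11 of nonsense-mediated decay had no member past the threshold and none at an unadjusted p of under 0.05. Their medians lay between -0.04 and 0.06, next to 0.03 over all genes tested. Among 13 cytoplasmic cap-binding factors none was called, and EIF4B, a cofactor of the eIF4A helicase, stood at 524 against 669 CPM without overlap (log2 fold change -0.35, SE 0.13). Among 14 decapping and 5′ decay genes, DCP1B was called lower, next to 0.0922% of all genes tested, and is described with its chromosome below. NUDT3, a hydrolase that can remove caps, stood at 30.7 against 55.3 CPM without overlap but did not pass (log2 fold change -0.85, SE 0.19, adjusted p = 0.221).

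Across the genome few genes separated clone A4 from vector. Of 21682 genes tested, 25 passed an adjusted p of 0.05, which is 0.115% of them. Of these, 5 were higher in clone A4 (0.0231% of the genes tested) and 20 were lower (0.0922%). At an unadjusted p of under 0.05, 541 genes were higher (2.5%) and 597 lower (2.75%). In 1344 genes (6.2%) all 3 clone A4 libraries lay above all 3 vector libraries, and in 1270 genes (5.86%) they lay below. None of the 25 called genes overlapped between the groups, and all 25 also passed with DESeq2. The number called rested on single libraries: with replicate A or with replicate C of clone A4 left out it was 10, with vector replicate A left out 7 and with vector replicate C left out 9. It was 41 when clone A1 replicate A, which enters the gene filter, the scaling and the estimate of the spread, was left out. With only the 6 libraries of clone A4 and vector it was 20, of which 17 were among the 25. Leaving out each of the 9 libraries in turn, 7 of the 25 passed every time: NCBP2, GREB1L, GATA6, LRRC17, LINC02074, LINC01029 and ADGRL3. Of the 25, 20 were protein-coding and 5 were long noncoding RNAs, all of the latter lower. These are 80% and 20% of the called genes, next to 64.5% and 21.5% of all genes tested.

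**Figure D1:**
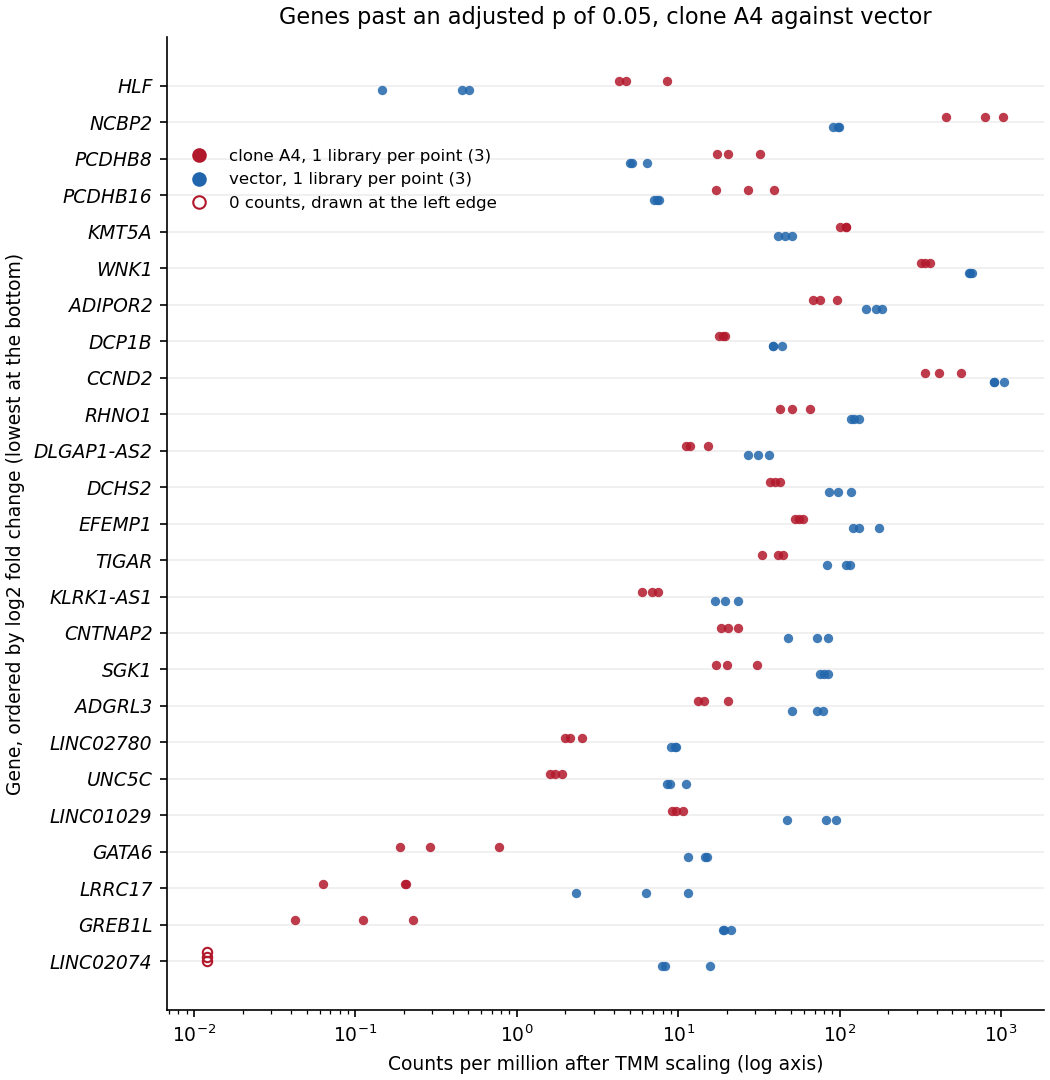
Level of each of the 25 genes past the threshold in the 3 clone A4 libraries (red) and the 3 vector libraries (blue), in CPM on a log axis, ordered by log2 fold change. In every row the red and blue points stand apart, and GREB1L, LRRC17, GATA6 and LINC02074 are below 1 CPM in all clone A4 libraries.

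**Figure D2:**
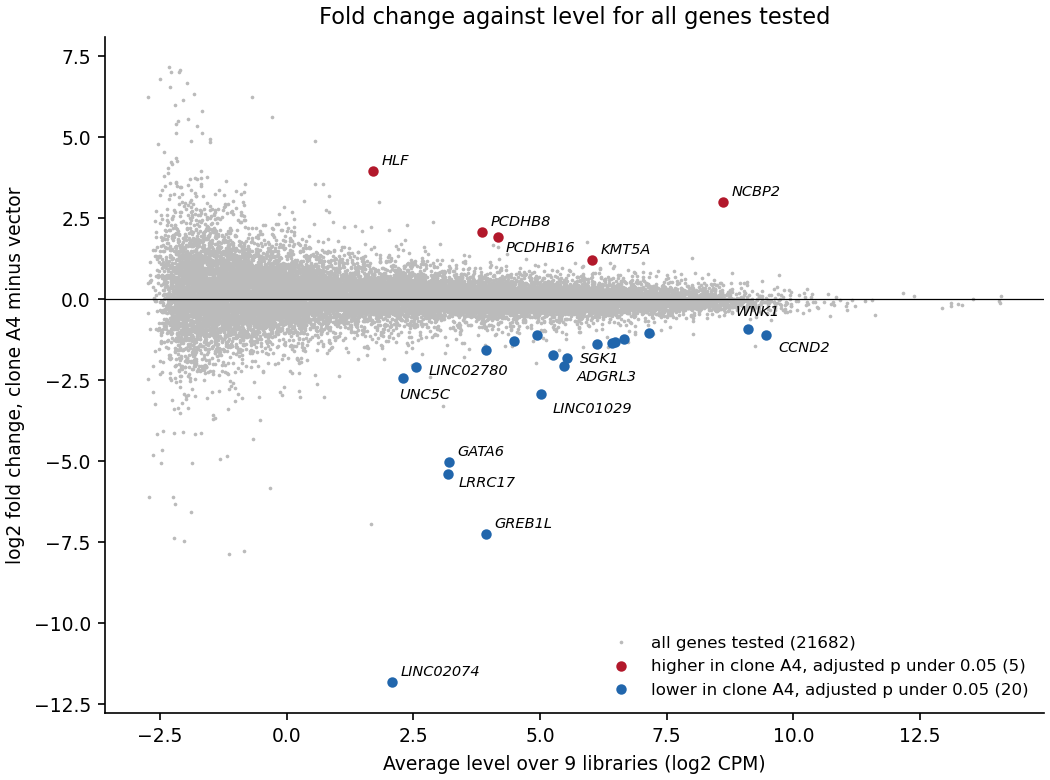
Average level over the 9 libraries (x axis, log2 CPM) against the log2 fold change of clone A4 over vector (y axis) for all 21682 genes tested, with the 5 genes called higher in red and the 20 called lower in blue. Most genes lie near 0, and NCBP2 stands apart among the abundant genes at 2.99.

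A pair of genes on chromosome 18, among them GREB1L with the smallest p of all genes tested, was nearly silent in clone A4. GREB1L (ENSG00000141449.14), a gene needed for kidney and inner ear development and linked to retinoic acid signalling, lies at chr18:21242232-21526112 on the plus strand. GATA6 (ENSG00000141448.10), a zinc-finger transcription factor of endoderm and heart, starts 643 kb further along at chr18:22169589-22202528 on the same strand. GREB1L had 2, 10 and 5 counts in clone A4, or 0.042, 0.228 and 0.112 CPM, and 19.1, 21.1 and 18.98 CPM in vector. The levels of GATA6 were 0.189, 0.774 and 0.291 CPM in clone A4 against 15.1, 14.7 and 11.5 CPM in vector. Neither gene came near its vector level in any clone A4 library. GREB1L fell 155-fold (log2 fold change -7.26, SE 0.42, adjusted p = 1.06e-05, edgeR's quasi-likelihood test) and GATA6 fell 33.0-fold (-5.04, SE 0.45, adjusted p = 0.000417). In clone A1 both genes stayed near vector, with log2 fold changes of 0.39 and -0.05. In counts taken without regard to strand the fold change of GREB1L was -2.61.

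Their promoters are shown because the 2 genes fell together and both start in CG-rich sequence. Each is the plus strand from 250 bases before to 50 bases after the start in the RefSeq table for GRCh38.p14, at chr18:21241982-21242281 and chr18:22169339-22169638, with CG dinucleotides in capitals.
GREB1L: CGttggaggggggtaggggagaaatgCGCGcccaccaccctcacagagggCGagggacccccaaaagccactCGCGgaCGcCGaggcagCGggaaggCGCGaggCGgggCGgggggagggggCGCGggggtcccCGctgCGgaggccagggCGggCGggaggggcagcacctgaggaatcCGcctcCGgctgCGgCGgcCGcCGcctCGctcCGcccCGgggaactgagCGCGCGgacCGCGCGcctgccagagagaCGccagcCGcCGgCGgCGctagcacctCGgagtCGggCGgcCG
GATA6: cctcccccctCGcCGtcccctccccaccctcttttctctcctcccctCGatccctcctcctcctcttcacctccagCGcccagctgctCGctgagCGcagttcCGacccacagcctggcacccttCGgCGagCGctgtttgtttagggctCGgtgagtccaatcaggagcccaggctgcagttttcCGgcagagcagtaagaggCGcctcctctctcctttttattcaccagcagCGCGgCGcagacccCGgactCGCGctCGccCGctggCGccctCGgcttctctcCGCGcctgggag
The GREB1L window held 43 CG dinucleotides and the GATA6 window 25, against a median of 14 over the 35116 promoter windows of the table. Windows with at least as many made up 4.98% and 32.0% of all. DNA methylation was not measured.

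The genes between and beside the pair were lower by much less or overlapped. MIB1, a ubiquitin ligase for Notch ligands, stood at 90.6 ± 11.5 against 157 ± 45.5 CPM (log2 fold change -0.80, adjusted p = 0.494), SNRPD1, a core protein of spliceosomal snRNPs, at 44.7 ± 6.09 against 70.0 ± 10.9 CPM (-0.65, adjusted p = 0.477), and ABHD3 at 13.4 ± 1.24 against 18.5 ± 3.35 CPM (-0.46, adjusted p = 0.966). In these 3 genes all clone A4 libraries lay below all vector libraries, and none passed the threshold. ROCK1 (-0.20) and ESCO1 (-0.22) overlapped between the groups. Of the genes linked to the pair by function, 13 GATA and mesendoderm factors were tested and GATA6 was the 1 called. In 3 of these 13 all clone A4 libraries lay below vector and in 1 above, next to 5.86% and 6.2% of all genes tested. Of 16 genes of retinoic acid signalling tested GREB1L was the 1 called. Over all genes tested 0.115% were called.

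A long noncoding RNA and a secreted protein were also at or near 0. LINC02074, at chr17:74043452-74154212 on the minus strand, had no count in any clone A4 library and 726, 427 and 324 counts in vector, or 15.7, 8.33 and 7.91 CPM. With 3 counts per clone A4 library as the limit that a count of 0 allows, it was at least 161-fold lower (adjusted p = 0.000417, edgeR's test). In clone A1 it stood at 1.41 to 2.96 CPM, a log2 fold change of -2.44 that did not pass. LRRC17, a secreted leucine-rich repeat protein, lies at chr7:102913000-102945111 on the plus strand inside FBXL13, which is read from the minus strand. It stood at 0.063, 0.205 and 0.202 CPM in clone A4 against 11.5, 2.32 and 6.32 CPM in vector, with vector replicate B well below the other two. The log2 fold change was -5.41 with a standard error of 0.61 (adjusted p = 0.00397, edgeR's test), and clone A1 differed by 1.59 in the other direction without passing. FBXL13 stood at 28.5 ± 5.15 CPM in clone A4 and 14.4 ± 2.99 CPM in vector (log2 fold change 0.99, adjusted p = 0.514). In counts that ignore strand, which mix the 2 genes, LRRC17 differed by -0.95 with an adjusted p of 0.966, and with voom it did not pass either.

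UNC5C, a receptor for the guidance protein netrin, fell from 9.52 ± 1.38 to 1.75 ± 0.149 CPM (log2 fold change -2.44, SE 0.34, adjusted p = 0.0137, edgeR's test). ADGRL3, an adhesion receptor of the latrophilin family, fell from 67.5 ± 15.0 to 16.0 ± 3.77 CPM (-2.07, SE 0.25, adjusted p = 0.00765). CNTNAP2, a neurexin-like adhesion protein, fell from 68.3 ± 18.7 to 20.7 ± 2.44 CPM (-1.73, SE 0.23, adjusted p = 0.0123). DCHS2, a very large cadherin, fell from 101 ± 16.1 to 39.8 ± 2.79 CPM (-1.34, SE 0.21, adjusted p = 0.0299). The 10 neural markers summed to 109 to 129 CPM in clone A4 against 131 to 156 CPM in vector, with MAP2 the most abundant. Of 9 tested, 7 had log2 fold changes below 0 and 2 above. SNAP25 was higher without overlap, at 13.9 to 15.8 CPM in clone A4 against 6.66 to 9.055 CPM in vector. The part of the neural markers in the values above was not tested. Of 56 axon guidance genes UNC5C was the 1 called and the median was -0.05. Of 34 contactins and synaptic adhesion genes CNTNAP2 was the 1 called and the median was -0.04. The share called over all genes tested was 0.115%. Clone A1 had log2 fold changes of -1.49 for UNC5C, -0.44 for ADGRL3, -1.45 for CNTNAP2 and 0.35 for DCHS2 against the same vector libraries. UNC5C did not pass without strand, where it differed by -0.96 (adjusted p = 0.72).

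SGK1, a kinase induced by serum and glucocorticoids that controls ion transport, stood at 20.1, 30.6 and 17.2 CPM in clone A4 against 75.9, 80.5 and 85.2 CPM in vector. The groups were far apart, and the log2 fold change was -1.83 with a standard error of 0.25 (adjusted p = 0.0123, edgeR's test). Of 14 glucocorticoid-responsive genes SGK1 was the 1 called, next to 0.115% of all genes tested. CRISPLD2 lay the other way at 5.12 against 2.48 CPM without passing (adjusted p = 0.484). EFEMP1, the matrix glycoprotein fibulin-3, stood at 53.3, 59.5 and 55.8 CPM in clone A4 against 177, 121 and 133 CPM in vector (-1.35, SE 0.18, adjusted p = 0.0123). Both genes were also lower in clone A1, by -1.16 and -1.27, of which the second passed there (adjusted p = 0.0354). The long noncoding RNA LINC01029, at chr18:77970637-77993731, fell from 74.9 ± 24.9 to 9.80 ± 0.781 CPM (-2.93, SE 0.27, adjusted p = 0.000585) and differed by -2.64 in clone A1. LINC02780, on chromosome 1, fell from 9.45 ± 0.326 to 2.22 ± 0.289 CPM (-2.09, SE 0.27, adjusted p = 0.0106) and differed by -0.68 in clone A1.

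Of the 20 genes called lower, 7 lay toward the short-arm end of chromosome 12. These 7 fall in a segment, described below, with 105 of the 13443 genes ordered along the chromosomes. Over all genes tested 0.0922% were called lower. KLRK1-AS1 starts at chr12:10363638, and the others lie closer together between chr12:752579 and chr12:4360028. WNK1, a kinase that controls chloride cotransporters, stood at 321, 362 and 339 CPM in clone A4 against 630, 661 and 647 CPM in vector (log2 fold change -0.92, SE 0.14, adjusted p = 0.0301, edgeR's test). CCND2, the G1 cyclin D2, stood at 413, 565 and 337 CPM against 904, 1042 and 899 CPM (-1.11, SE 0.18, adjusted p = 0.0446). Its neighbour TIGAR, a fructose bisphosphatase that is a target of p53, stood at 41.5, 44.3 and 32.9 CPM against 116, 83.1 and 109 CPM (-1.37, SE 0.21, adjusted p = 0.0238). In all 3 genes the libraries kept well apart. RHNO1, a partner of the 9-1-1 checkpoint clamp, fell from 124 ± 6.70 to 52.8 ± 11.5 CPM. ADIPOR2, a receptor for adiponectin, fell from 166 ± 18.6 to 79.9 ± 14.1 CPM. DCP1B, a cofactor of the decapping enzyme, fell from 40.5 ± 3.14 to 18.8 ± 0.734 CPM, and the antisense RNA KLRK1-AS1 fell from 20.02 ± 3.28 to 6.78 ± 0.786 CPM. The log2 fold changes of these 4 genes were -1.23, -1.06, -1.11 and -1.56. All 7 lay 1.90-fold to 2.95-fold below vector, and in clone A1 the same genes ranged from -0.60 (TIGAR) to 0.13 (ADIPOR2). Only KLRK1-AS1, RHNO1 and TIGAR passed in more than 8 of 16 other settings. Each of the 7 lost its call without replicate A or C of clone A4 and without replicate A or C of vector. With only the 6 libraries of clone A4 and vector, TIGAR alone of the 7 kept its call.

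Around KLRK1-AS1 most genes overlapped between the groups, and around the other called genes of this arm the neighbours were lower as well. To describe this, genes with an average log2 CPM of at least 1 were ordered along each chromosome, and the median log2 fold change of every 40 neighbouring genes was taken relative to the median of all 13443 such genes. A segment is a run of these windows at or beyond 0.4 in which the clone A4 libraries do not overlap the vector libraries. Neighbouring genes are not independent, so segments were not tested. On chromosome 12 the segment was chr12:273954-11171608, with 105 genes. Of these, 94 were below the median of all genes, and 51 (48.6%) had all clone A4 libraries below all vector libraries, next to 5.86% of all genes tested. Segments were chosen for such separation and for their medians, so these shares are given as a description. The median was -0.60 and the lowest window -0.97. The segment's level, the median over its genes relative to all genes on the log2 scale, was -0.39, -0.35 and -0.24 in clone A4 against 0.26, 0.43 and 0.30 in vector. The gap of 0.50 between the groups was the widest of the segments found, and the next 20 genes along the chromosome had a median of 0.08. In clone A1 the segment stood at 0.12. It was found in all 14 other settings tried. TULP3, ERC1, RAD52, ANO2 and GPRC5A, also on chromosome 12, were among the 10 genes given as nearest to the threshold on the lower side, counting genes with a symbol that are not pseudogenes and have an average log2 CPM of at least 1 (log2 fold changes -1.02, -0.86, -1.10, -1.44 and -0.97). FOXM1, a transcription factor of the G2/M genes whose start overlaps RHNO1 on the other strand, stood at 149 against 313 CPM without overlap (-1.07, adjusted p = 0.349), while the 33 mitosis genes it is listed with had a median of -0.03.

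**Figure D3:**
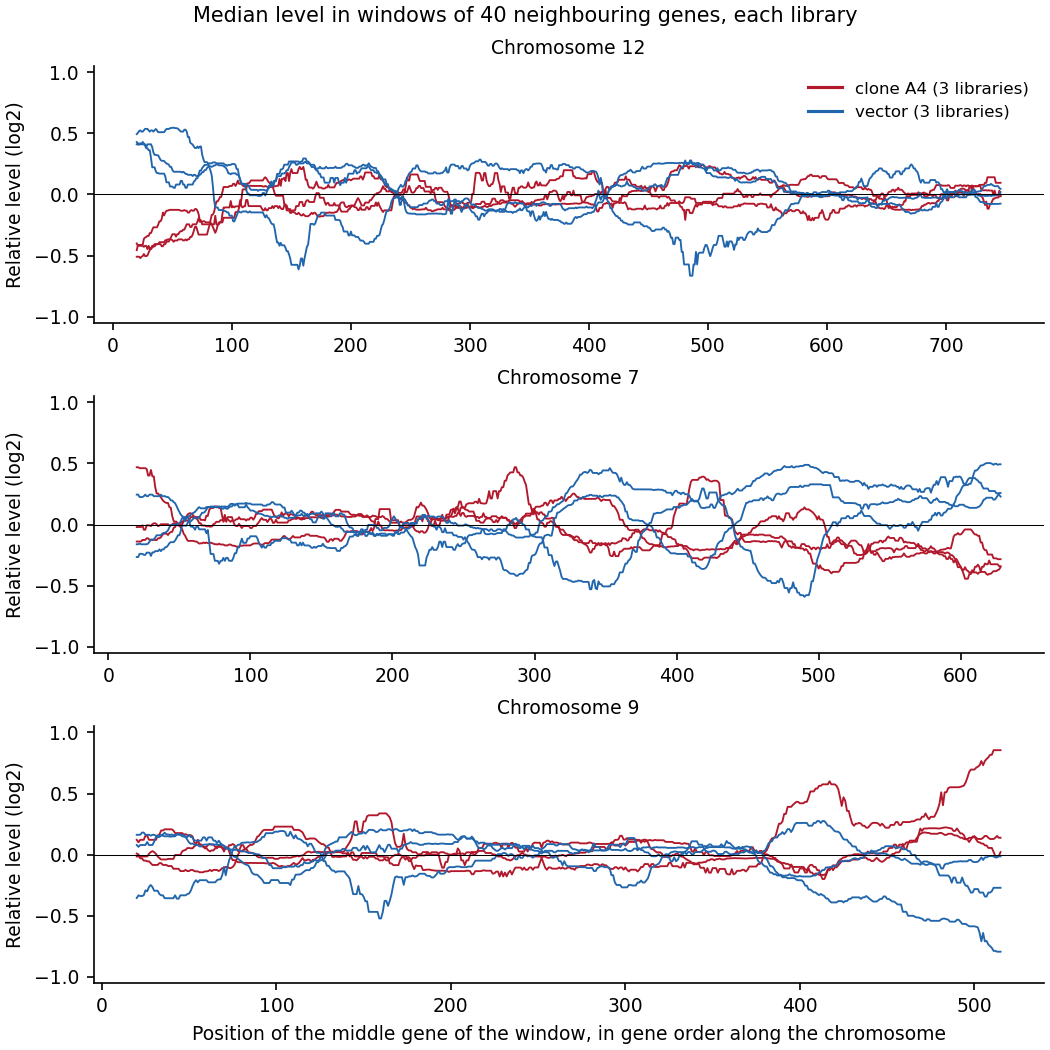
Median level of windows of 40 neighbouring genes relative to all genes (y axis, log2) along chromosomes 12, 7 and 9 in gene order (x axis), 1 line per library, clone A4 in red and vector in blue. At the start of chromosome 12 the 3 red lines lie below the 3 blue lines, and elsewhere single vector clones leave the others.

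The method found 6 segments with 592 of the 13443 genes (4.40%), and these held 11 of the 25 called genes. On chromosome 7 a lower segment at chr7:113486407-159030195 reached the end of the chromosome with 162 genes, a median of -0.48 and 74 genes (45.7%) with all clone A4 libraries below vector, a share that the choice of segments raises over the 5.86% of all genes. Its level was -0.24, -0.26 and -0.24 in clone A4 against 0.40, 0.07 and 0.21 in vector. CNTNAP2 lay in it, and so did CAV1, the coat protein of caveolae, at 371 against 1002 CPM (log2 fold change -1.44, SE 0.33, adjusted p = 0.229), and MET, the receptor of hepatocyte growth factor, at 114 against 241 CPM (-1.08, SE 0.26, adjusted p = 0.265). Clone A1 had a median of -0.53 in the same segment. On chromosome 18 a lower segment at chr18:2945550-12987536, which does not reach GREB1L and GATA6, held 50 genes with a median of -0.37, 25 of them with all clone A4 libraries below vector (again next to 5.86%), and -0.06 in clone A1. DLGAP1-AS2, an antisense RNA in it, fell from 31.5 ± 4.80 to 12.8 ± 2.24 CPM (-1.30, SE 0.21, adjusted p = 0.0382, edgeR's test). TMEM200C (-1.24), ARHGAP28 (-1.16) and GNAL (-0.93), further along the same segment, did not pass.

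The other 3 segments were higher in clone A4. At chr9:130693721-137870016, up to the end of chromosome 9, 85 genes had a median of 0.60, with none called. The level was 0.16, 0.10 and 0.57 in clone A4 against -0.17, -0.05 and -0.57 in vector, so that clone A4 replicate C and vector replicate C stood apart from the others of their groups. SAPCD2 (23.1 against 11.8 CPM), the histone methyltransferase EHMT1 (88.9 against 55.9 CPM) and the collagen COL5A1 (155 against 83.2 CPM) led it without passing. Clone A1 stood at 0.26 over the segment, with log2 fold changes of 0.85 for SAPCD2, 0.46 for EHMT1 and -0.05 for COL5A1. At chr2:162318840-200903938, 135 genes had a median of 0.39 with none called, and clone A1 stood at 0.51. The 20 genes before this segment and the 20 after it had medians of 0.35 and 0.34, so the shift did not stop at these ends. All 937 genes of chromosome 2 had a median of 0.20. The clone A4 levels of 0.36, 0.17 and 0.12 and the vector levels of -0.25, -0.39 and 0.01 were close at their edges. COL5A2, a collagen gene, stood at 129 against 59.7 CPM there (1.12, SE 0.26, adjusted p = 0.233), while in clone A1 it differed by 0.004. The last segment, at chr5:140401908-142154440 with 55 genes, covers the protocadherin cluster and genes on both sides of it. Its median was 0.29, with 39 genes above the median of all genes and 2 called, and clone A1 stood at 0.15. The level was 0.30, 0.19 and 0.07 in clone A4 against -0.10, -0.07 and -0.33 in vector. Within it the 32 protocadherin genes had a median of 0.59 and the 23 other genes a median of -0.06. Among the latter 3 had all clone A4 libraries above all vector libraries and 1 had them below. Those 3 were the protocadherin pseudogenes PCDHB17P (1.11) and PCDHB18P (1.61) and a long noncoding RNA within the cluster (1.51), none past the threshold. The histidyl-tRNA synthetase HARS1 (0.10), the formin DIAPH1 (-0.07) and the histone deacetylase HDAC3 (-0.14) overlapped between the groups. The segments on chromosomes 7, 9 and 12 were found in all 14 other settings. That on chromosome 2 was lost without clone A4 replicate A, without vector replicate B and at a threshold of 0.5. That on chromosome 5 was lost without clone A4 replicate B, with windows of 80 genes and among genes with an average log2 CPM of at least 3. That on chromosome 18 was lost without clone A4 replicate C, with windows of 80 genes and at a threshold of 0.5. The vector clones also differed from each other along the chromosomes. In 35.3% of 12546 windows their levels spanned at least 0.4, against 12% of windows among the clone A4 libraries.

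**Figure D4:**
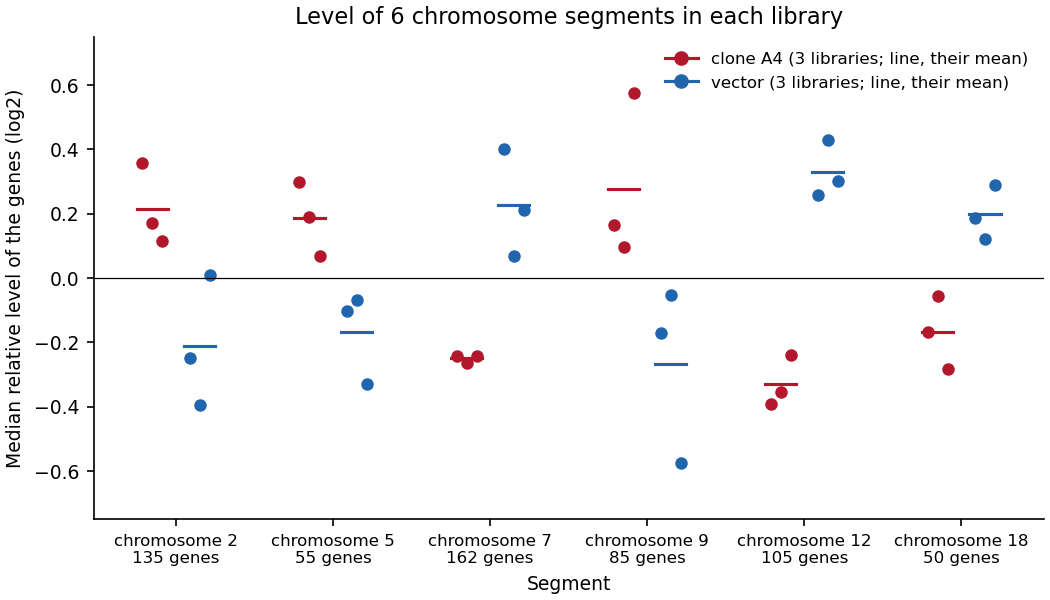
Median level of the genes of each of the 6 segments relative to all genes (y axis, log2) in each library, clone A4 in red and vector in blue, with lines for the means. The widest gap is on chromosome 12, and on chromosome 9 clone A4 replicate C and vector replicate C lie farther out, near 0.57 and -0.57.

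Besides NCBP2, 4 genes rose in clone A4. HLF, a circadian transcription factor of the PAR bZIP family at chr17:55264960-55325187, stood at 4.74, 8.49 and 4.30 CPM in clone A4 against 0.455, 0.507 and 0.146 CPM in vector. It rose 15.8-fold (log2 fold change 3.96, SE 0.49, adjusted p = 0.00866, edgeR's test) and had a log2 fold change of 3.19 in clone A1 (adjusted p = 0.0438). Of 17 clock and PAR bZIP genes it was the 1 called, next to 0.115% of all genes tested, and the median of the list was -0.08. KMT5A, the enzyme that places a single methyl group on lysine 20 of histone H4, lies at chr12:123384132-123409353, far from the lower segment of its chromosome. It stood at 100, 110 and 110 CPM in clone A4 against 41.4, 50.6 and 46.1 CPM in vector, with a narrow spread in each group. The rise was 2.32-fold (1.21, SE 0.18, adjusted p = 0.0225), clone A1 differed by -0.11, and its nearest neighbours SBNO1 (0.01) and RILPL2 (0.28) overlapped between the groups.

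The remaining genes that rose, PCDHB8 and PCDHB16, are neighbours in the clustered protocadherins, a family of neuronal adhesion proteins. The family is arranged as alpha, beta and gamma groups in a row on chromosome 5, and single cells are known to choose few of its promoters, each with its own first exon. PCDHB8, at chr5:141177790-141180539, stood at 20.3, 32.1 and 17.4 CPM in clone A4 against 6.41, 5.13 and 5.03 CPM in vector. PCDHB16, at chr5:141182387-141186226, stood at 27.1, 39.2 and 17.1 CPM against 7.37, 7.57 and 7.12 CPM. Clone A4 replicate B was the highest and replicate C the lowest for both genes, and all 3 were above vector. PCDHB8 rose 4.21-fold (log2 fold change 2.07, SE 0.28, adjusted p = 0.0123) and PCDHB16 3.78-fold (1.92, SE 0.31, adjusted p = 0.0410, edgeR's test). In clone A1 they differed by 1.40 and 1.33 from the same vector libraries without passing. The beta genes resemble one another, and reads that align to several places were not counted, so their levels rest on unique sequence. PCDHB16 lost its call in 8 of 16 other settings and PCDHB8 in 2.

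The promoters of these 2 genes and of PCDHA10, the alpha gene nearest to the threshold, are shown because most members of the family lay on the same side of vector. The windows are chr5:141177540-141177839, chr5:141182137-141182436 and chr5:140855647-140855946, plus strand, from the same RefSeq table, and capitals mark the letters CGCT on either strand, the core of an element that protocadherin promoters are known to share.
PCDHB8: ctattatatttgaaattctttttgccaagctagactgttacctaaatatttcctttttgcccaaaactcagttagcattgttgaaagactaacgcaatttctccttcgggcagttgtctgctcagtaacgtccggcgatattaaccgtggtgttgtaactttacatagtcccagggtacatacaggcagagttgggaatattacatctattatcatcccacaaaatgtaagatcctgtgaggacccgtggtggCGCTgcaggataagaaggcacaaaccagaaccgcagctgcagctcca
PCDHB16: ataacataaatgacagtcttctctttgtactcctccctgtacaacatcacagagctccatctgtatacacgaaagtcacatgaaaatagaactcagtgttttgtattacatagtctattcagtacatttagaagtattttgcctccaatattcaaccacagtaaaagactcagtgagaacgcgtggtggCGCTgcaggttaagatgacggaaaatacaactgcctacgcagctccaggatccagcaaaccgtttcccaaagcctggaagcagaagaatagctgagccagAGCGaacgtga
PCDHA10: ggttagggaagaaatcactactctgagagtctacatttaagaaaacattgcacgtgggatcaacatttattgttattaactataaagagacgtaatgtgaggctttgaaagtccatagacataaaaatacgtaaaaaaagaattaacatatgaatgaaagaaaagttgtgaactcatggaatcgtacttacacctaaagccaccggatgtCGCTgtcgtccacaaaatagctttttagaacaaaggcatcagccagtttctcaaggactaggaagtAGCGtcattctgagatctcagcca
CGCT on either strand stood in 45 of the 46 protocadherin windows matched, against 70.0% of all 35116 windows, so these 4 letters alone are common. The longer TGGCGCTG, which was picked after these sequences were seen and contains CGCT, stood in 12 of 13 beta, 0 of 13 alpha and 1 of 20 gamma windows, and in 1.91% of all windows on either strand. A match is a stretch of letters and not a measured binding site.

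Over the cluster, 52 clustered protocadherin genes were tested and 2 were called, both higher, next to 0.0231% of all genes called higher. Their median log2 fold change was 0.68 against 0.03 over all genes tested, and 47 of 52 were above 0. The median over these genes of log2 CPM relative to each gene's mean was 0.50, 0.50 and 0.05 in clone A4. In vector it was -0.31, -0.20 and -0.44, so that clone A4 replicate C lay nearer to vector than replicates A and B. In 23 genes all clone A4 libraries lay above all vector libraries and in 0 genes below, next to 6.2% and 5.86% of all genes tested. At an unadjusted p of under 0.05, 17 were higher and 0 lower, next to 2.5% and 2.75% of all genes. Members differed widely. PCDHA10 stood at 15.7 ± 4.13 against 3.04 ± 0.516 CPM (2.37, SE 0.40, adjusted p = 0.0526), PCDHB6 at 5.23 ± 2.07 against 1.22 ± 0.484 CPM (2.10, SE 0.46, adjusted p = 0.184) and PCDHA1 at 2.003 against 0.357 CPM (2.48, SE 0.65, adjusted p = 0.349). PCDHB11 (46.0 against 43.0 CPM), PCDHA12 (7.73 against 7.28 CPM) and PCDHA4 (6.76 against 6.91 CPM) overlapped between the groups. The alpha and the gamma transcripts each end in shared exons, and reads there cannot be assigned to 1 gene and are left out. In clone A1 PCDHA10 differed by 0.14, PCDHB6 by 0.55 and PCDHA1 by 1.19. The list was drawn up with earlier results of these data known. The 22 classical cadherins and single protocadherins, in contrast, had a median of -0.03 with none called, and that difference between the lists was not tested.

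**Figure D5:**
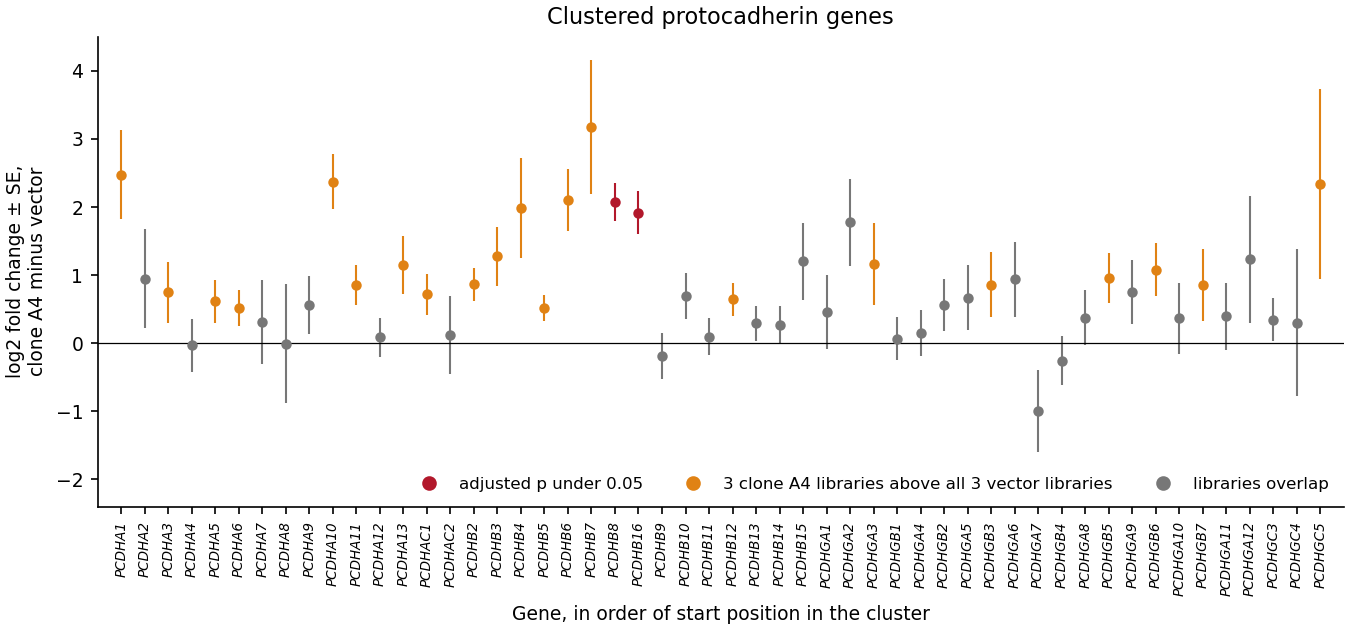
Log2 fold change of clone A4 over vector with its standard error (y axis) for the 52 clustered protocadherin genes tested, in order of start position (x axis). Most points lie above 0, PCDHB8 and PCDHB16 (red) passed the threshold, and the other genes without overlap are in orange.

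Just short of the threshold stood a further set of genes, given as values. SNAPC1, a subunit of the complex that starts transcription of small nuclear RNA genes, stood at 86.8 ± 20.8 against 25.7 ± 7.80 CPM (log2 fold change 1.76, SE 0.30, adjusted p = 0.0512), with 1.43 in clone A1. The 14 small nuclear RNA genes tested had a median of -0.14 with none called. WNT11, a noncanonical Wnt ligand, stood at 6.21 ± 1.92 against 0.769 ± 0.654 CPM (2.997, SE 0.53, adjusted p = 0.0621), with 2.19 in clone A1, in a list of 41 Wnt pathway genes with a median of 0.07. P3H2, a collagen prolyl hydroxylase, TMEM45A and PLEKHA7, a junction protein, were between 1.06 and 1.11 (adjusted p 0.0526 to 0.0592). On the lower side, EGFR, the epidermal growth factor receptor, stood at 8.73 ± 1.43 against 23.3 ± 4.28 CPM (-1.42, SE 0.24, adjusted p = 0.0526). PDE5A, a cyclic GMP phosphodiesterase, stood at 21.02 ± 4.34 against 62.2 ± 22.6 CPM (-1.56), PDGFC, a growth factor, at 4.75 ± 1.03 against 16.4 ± 6.53 CPM (-1.78) and EHF, an epithelial ETS factor, at 0.753 ± 0.243 against 3.95 ± 1.33 CPM (-2.39), with adjusted p of 0.117 to 0.126.

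Of 64 gene lists, most had medians near that of all genes and no called member. Of the stress and biosynthesis genes controlled by ATF4 none was called: 27 of 28 were below 0, the median was -0.28, 6 had all clone A4 libraries below vector and 5 reached an unadjusted p of under 0.05, next to 5.86% and 2.75% of all genes tested. The level of the list, the median over its genes of log2 CPM relative to each gene's mean, was -0.26, -0.33 and 0.06 in clone A4 against 0.36, 0.23 and 0.03 in vector, so that clone A4 replicate C stood above vector replicate C. TRIB3, a pseudokinase of the stress response, stood at 6.89 against 13.4 CPM (-0.96, SE 0.25, adjusted p = 0.349) and the serine synthesis enzyme PSAT1 at 104 against 165 CPM (-0.67, SE 0.19, adjusted p = 0.413). Asparagine synthetase ASNS, at 4.05 against 9.27 CPM, overlapped because vector replicate B stood at 4.65 CPM. The 86 cytosolic ribosomal protein genes had a median of -0.19, with 66 below 0 and none called. In 10 of them all clone A4 libraries lay below vector, next to 5.86% of all genes tested, and in 0 above. The level of the list was -0.17, -0.03 and -0.05 in clone A4 against 0.21, 0.21 and -0.14 in vector, so that vector replicate C lay among the clone A4 libraries. RPS23, the member with the smallest p, stood at 507 against 744 CPM (-0.55, SE 0.17, adjusted p = 0.477). The 9 epithelial markers tested had a median of -1.002, with 7 below 0 and 2 above. KRT8, a keratin of simple epithelia, stood at 30.4, 21.9 and 39.7 CPM in clone A4 against 91.1, 108 and 56.1 CPM in vector (-1.47, SE 0.31, adjusted p = 0.176). EPCAM (2.55 to 5.58 against 2.42 to 2.97 CPM) and CLDN4 (1.39 to 2.98 against 1.27 to 1.78 CPM) overlapped between the groups.

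Collagen genes stood on both sides of vector and most osteoblast genes had log2 fold changes above 0, none of them past the threshold. Among 34 collagen genes none was called, 5 had all clone A4 libraries above vector and 3 below, next to 6.2% and 5.86% of all genes tested. COL5A1 and COL5A2, the chains of type V collagen, were the higher pair named above, and COL11A1, a chain of the cartilage collagen type XI, stood lower at 86.0 against 170 CPM (-0.99, SE 0.22, adjusted p = 0.221). The 14 osteoblast genes tested had a median of 0.29 with 12 above 0 and none called, and RUNX2, the master factor of bone, stood at 253 against 200 CPM with overlap. Genes of hypoxia and glycolysis had a median of 0.20 with 22 of 29 above 0, none called and none at an unadjusted p of under 0.05. DNA replication (39 genes, median -0.07), mitosis (33 genes, -0.03), the interferon response (27 genes, 0.16), the unfolded protein response (18 genes, 0.05), heat shock (14 genes, 0.04) and cholesterol and fatty acid synthesis (31 genes, -0.00022) had no called member. TIGAR was the 1 gene called among 24 p53 targets, next to 0.115% of all genes tested.

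The share of the counts taken by each RNA class overlapped between the groups. Protein-coding genes took 84.1% ± 1.13 of gene counts in clone A4 and 84.0% ± 1.02 in vector (SD, n = 3 each), long noncoding RNAs 2.84% ± 0.329 and 2.62% ± 0.378, small nuclear RNAs 0.347% ± 0.200 and 0.394% ± 0.098, and small nucleolar RNAs 0.051% ± 0.021 and 0.048% ± 0.013. The libraries overlapped in each of the 9 classes compared. Two-sided exact permutation tests gave p of 0.2 or more (adjusted p = 0.9 for each class), and 3 libraries against 3 cannot give less than 0.1. The 39 replication-dependent histone genes tested, whose mRNAs end without a poly(A) tail, had a median log2 fold change of 0.004 with none called.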

How the data were processed

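Total RNA was sequenced after ribosomal RNA removal, per the labels' protocols, whereas the molecule field names polyadenylated RNA. The authors deposited raw counts of reads per gene, and the submitters' processing notes name STAR 2.7.1a and GRCh38. The gene-strand counts were used, and the 4 lines that name no gene, 53.6% to 58.1% of reads in clone A4 and 44.5% to 53.3% in vector, were left out. Of 60609 identifiers, 60295 matched GENCODE release 44 without the version, which gave symbols and coordinates.

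Genes were filtered with filterByExpr, scaled with TMM and tested with edgeR 4.0.16 (robust quasi-likelihood fit, R 4.3.3) in 3 groups over all 9 libraries, at a Benjamini-Hochberg adjusted p of 0.05. Alternatives were DESeq2 1.42.0, voom with library weights (limma 3.58.1), RLE scaling, no filter, 6 libraries, a replicate block, unstranded counts and leaving out each library. Named genes are NCBP2, all called genes, their neighbours within 500 kb, the 10 nearest to the threshold in each direction among genes without overlap that have a symbol, are not pseudogenes and average a log2 CPM of at least 1, up to 4 members per list and up to 5 per segment. PCDHA1, PCDHA4, PCDHA12 and PCDHB11 and the marker genes with their values were named beyond this rule after their values were seen. Some genes that the rule names are not reported here. The comparison and the gene lists were chosen with earlier results of these data known. Replicate libraries differed by more than counting noise. At this depth 3 counts in a clone A4 library are 0.063 to 0.068 CPM, a limit that covers counting error only. Promoters are from RefSeq (GRCh38.p14), with 17 of 25 called genes matched.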

Additional observations from a re-analysis of the deposited data

Results flagged for a closer look

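The change in clone A4 differed from that in clone A1 by the test of the difference itself (clone A4 minus clone A1, edgeR's quasi-likelihood test, adjusted over all genes) for 11 of the 25 called genes. Both clones were set against the same vector libraries, but the direct difference does not use the vector levels. It does use the clone A4 libraries by which the 25 genes were called, which raises this count. The share of all genes tested that pass the direct difference is not given here, so the count is a description. On the log2 scale the difference was -9.38 for LINC02074 (adjusted p = 0.00257), -7.65 for GREB1L (6.44e-06), -7.004 for LRRC17 (0.000569) and -5.00 for GATA6 (0.000569). LRRC17 stood at 18.3 to 22.0 CPM in clone A1, above every vector library, and GREB1L at 22.6 to 30.2 CPM. The difference was -1.69 for DCHS2 (adjusted p = 0.00642) and -1.63 for ADGRL3 (0.0257). Among the genes of the chromosome 12 segment it was -1.46 for KLRK1-AS1 (0.0283), -1.26 for RHNO1 (0.0167), -1.19 for ADIPOR2 (0.0157) and -0.98 for WNK1 (0.0172). KMT5A, which was higher in clone A4, differed by 1.33 (0.0104). In each of these 11 genes all 3 clone A4 libraries lay on one side of all 3 clone A1 libraries.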

How the results depend on the processing

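All 25 called genes kept their sign in all 16 alternatives, and 6 of them (GREB1L, NCBP2, LINC02074, GATA6, LINC01029 and ADGRL3) passed the threshold in each. The number called was 25 in the reported test and 185 with DESeq2 (69 higher, 116 lower), 214 with voom (78 and 136), 163 with no filter on low counts (68 and 95), 26 with RLE scaling, 20 with only 6 libraries and 22 with unstranded counts. With only the 6 libraries of clone A4 and vector, 17 of the 25 kept their call. Leaving out a library gave 7 to 41, the fewest without vector replicate A and the most without clone A1 replicate A. The share of called genes that were higher, 20% as reported, was 37.3% with DESeq2 and 41.7% with no filter. Same-lettered libraries correlated at 0.473 (A), 0.166 (B) and -0.318 (C) in their deviations from the group means, and libraries of unlike letters at -0.657 to 0.527. Deviations within a group of 3 libraries depend on each other, so these values cannot decide whether the letters mark a shared batch. The labels do not say what the letters mark. A fit with a replicate block gave 53 calls, among them all 25. There were 6 chromosome segments as reported, 13 with windows of 20 genes, 4 with windows of 80, 11 at a threshold of 0.3, 4 at 0.5 and 6 to 19 when a library was left out, the most without vector replicate B. The segment medians with a library left out stayed between -0.66 and -0.55 on chromosome 12, -0.56 and -0.41 on chromosome 7, 0.40 and 0.65 on chromosome 9, 0.32 and 0.55 on chromosome 2, 0.16 and 0.36 on chromosome 5, and -0.48 and -0.27 on chromosome 18. The protocadherin median stayed between 0.57 and 0.76 and that of the ATF4 genes between -0.57 and -0.25. The share of protein-coding counts, 0.114 percentage points higher in clone A4, was -0.269 points with mitochondrial counts left out, and neither differed by an exact permutation test (p = 0.9 and 0.3). The causes of these shifts were not tested.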

Other observations

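Several smaller gene groups, none with a called member besides those already named, are given as values. In the Notch pathway (18 genes tested, median log2 fold change -0.14) 4 genes had all clone A4 libraries below vector: the ligands JAG1 (30.2 against 45.8 CPM) and DLL1 (0.388 against 1.07 CPM) and the targets HES1 (23.5 against 38.2 CPM) and HEY1 (2.29 against 3.64 CPM), at log2 fold changes of -0.60, -1.46, -0.70 and -0.67 and adjusted p of 0.473, 0.782, 0.654 and 0.9997 by edgeR's test. Over all genes tested 5.86% had all clone A4 libraries below vector. In the TGF-beta and BMP pathway (45 genes, median -0.02) the ligand BMP4 stood at 255, 317 and 205 CPM in clone A4 against 136, 175 and 112 CPM in vector (0.88, SE 0.24, adjusted p = 0.392). Among the feedback targets of MAPK signalling ETV5 stood at 49.4 against 88.8 CPM (-0.85, adjusted p = 0.413), and in clone A1 it differed by -0.84 from the same vector libraries.

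Genes tied to the telomere biology of U2-OS, which keeps its telomeres without telomerase, had a median of -0.05 over 21 genes. RAD52, a recombination protein in the chromosome 12 segment, stood at 9.83 against 21.1 CPM (-1.10, adjusted p = 0.122) and the nuclear receptors NR2F2 and NR2F1 at 70.9 against 97.2 and 4.10 against 7.59 CPM, all without overlap and none past the threshold. ATRX spanned 307 to 532 CPM in clone A4 against 212 to 564 CPM in vector. Among 17 integrins, ITGB2, a leukocyte chain, stood at 3.43 against 0.938 CPM (1.87, SE 0.51, adjusted p = 0.412), while PTPRC, another leukocyte gene, overlapped at 0.614 to 0.902 against 0.449 to 1.32 CPM.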
